A study of Arabidopsis thaliana with 9 samples.

Results

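The transcripts of wild-type Arabidopsis thaliana seedlings of the accession Col-0 were described from 3 of the 9 libraries of a study of PP4R3A, a regulatory subunit of protein phosphatase 4. The members were chosen by genotype alone: the 3 Col-0 count tables, each from a separate biological replicate, with no contrast against the other 6 libraries, those of pp4r3a-1 and pp4r3a-2. Seedlings were 12 days old and whole, grown on plates of 0.5-strength Murashige and Skoog medium under 16 h of light and 8 h of dark, and carried no transgene that the labels name. The RNA was polyadenylated RNA from whole seedlings, so a level is an average over shoot and root cells, and a change in the number of cells of a type cannot be told apart from a change in RNA per cell. The tables gave exon counts and intron counts of 37869 loci. An intron share, the intron count as a percent of intron plus exon counts, was taken for the 16887 loci with at least 100 counts in each Col-0 library.

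Most of the protein that captures light and fixes carbon in a leaf is encoded in the nucleus and imported into the chloroplast. Light-harvesting chlorophyll a/b-binding proteins (LHCA and LHCB) surround photosystems I and II, nuclear-encoded subunits complete the photosystems themselves, and the small subunit of Rubisco (RBCS) joins a large subunit made in the chloroplast. A nuclear transcript carries introns until the spliceosome removes them, and most poly(A) RNA is fully spliced. Counts in introns come from transcripts that still hold an intron, or from other transcripts made at the same place.

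Exon counts summed to 25328467, 25642851 and 23343990 in replicates 1, 2 and 3, and intron counts made up 2.004%, 2.07% and 2.096% of all counts. In these libraries 3 counts corresponded to 0.118, 0.117 and 0.129 exon counts per 1000000 exon counts (CPM). The libraries lay close to each other: among 13278 loci at a mean of at least 10 CPM the median coefficient of variation was 3.41%, and 6 loci differed by more than 1.5-fold between the highest and the lowest library. As a check of the labels, PP4R3A (AT3G06670) stood at 17.7 to 65.8 CPM in the 6 mutant libraries and at 79.7 to 83.2 CPM in the 3 Col-0 libraries, so the ranges did not overlap.

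Transcript levels spanned a log10 ratio of 5.58, 5.58 and 5.52 between the highest and the lowest exon CPM above 0 within replicates 1, 2 and 3. Over the means of the 3 libraries the log10 ratio was 6.05, where the lowest mean of 0.0130 CPM is 1 count in 1 library, and it was 5.87 to 5.88 with a replicate left out. Of the 37869 loci, 10410 (27.5%) had no exon count in any of the 3 libraries and 20032 had at least 1 CPM in each. The median over loci with a count was 9.16 CPM. The 20 most abundant loci held 8.61% of exon counts. The mass of the RNA lay with few loci: the 87 loci at a mean of 1000 CPM or more held 18.3% of exon counts, and the 1780 loci between 100 and 1000 CPM held 39.1%. Another 11411 loci between 10 and 100 CPM also held 39.1%, whereas the 7094 loci between 1 and 10 CPM held 3.29%. Between 1215 and 1250 loci, depending on the library, accounted for 50% of the exon counts.

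A locus without a count was most often not a protein-coding gene. Of 27444 protein-coding loci, 3646 (13.3%) had no exon count and 19012 (69.3%) reached 1 CPM in each library, and together they held 97.0% of exon counts. Of 4843 pseudogenes 3817 (78.8%) had no exon count, and of 3480 long non-coding RNA loci 1760 (50.6%). All 625 nuclear tRNA loci were at 0, as were 173 of 287 small nucleolar RNA loci; these RNAs are short and lack a poly(A) tail when mature. A further 343 loci without any exon count had intron counts. A count of 0 allows up to 3 counts per library, which is the level of 0.117 to 0.129 CPM given above, and this limit covers counting error only.

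The most abundant transcripts were those of photosynthesis, and 15 of the 20 loci with the highest mean exon CPM belonged to the lists of antenna, Rubisco, photosystem and Calvin cycle genes. LHCB1.3 (AT1G29930), an apoprotein of the main photosystem II antenna, came first with 14935, 14722 and 14229 CPM. RBCS1A (AT1G67090), a Rubisco small subunit gene, followed with 11931, 12481 and 11847 CPM. RBCS3B (AT5G38410) had 5225, 5545 and 5449 CPM. In each replicate LHCB1.3 stood above RBCS1A and RBCS1A above RBCS3B, so the order of these 3 loci did not depend on the library. After division by the annotated exon length the order was kept for the first 2, at a mean of 11893 CPM per kb for LHCB1.3 and 9532 for RBCS1A. RBCS3B, with 3834 CPM per kb, was then level with RBCS2B (AT5G38420), with 3849 CPM per kb, and their values overlapped between libraries.

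**Figure D1:**
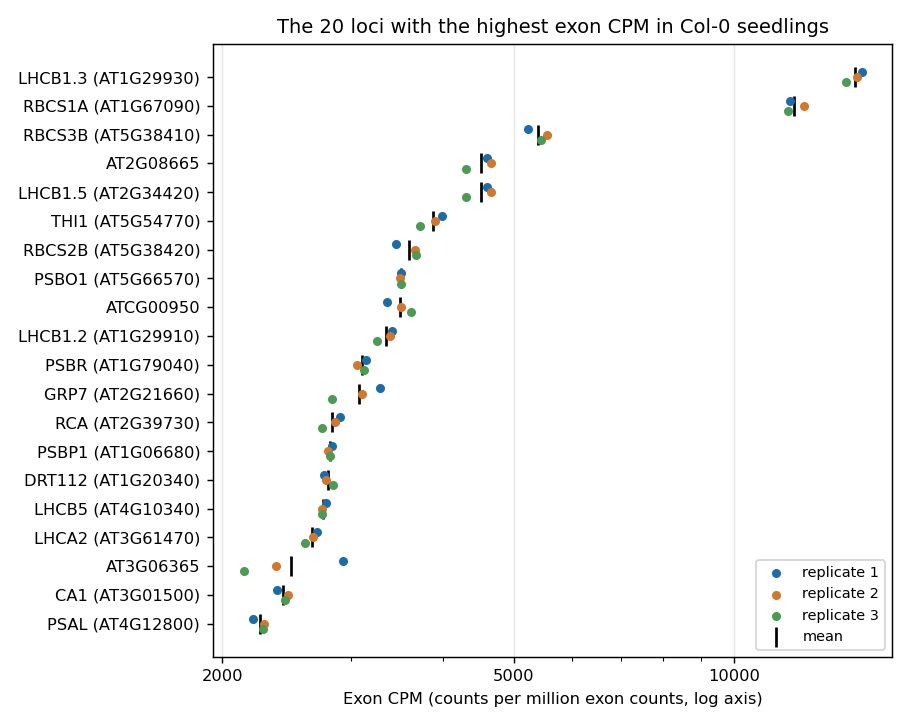
Exon CPM (log axis) of the 20 loci with the highest mean in Col-0 seedlings, with 1 point per replicate and a bar at the mean. LHCB1.3 and RBCS1A stand apart, with no point below 11847 CPM, and for most loci the 3 replicates lie close together; AT3G06365 is the widest, between 2139 and 2925 CPM.

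Not every locus near the top is a separate transcript. LHCB1.5 (AT2G34420) and the long non-coding RNA locus AT2G08665, which lies over it on the opposite strand, had exactly the same exon counts, 116457, 119372 and 100441 in replicates 1, 2 and 3, or 4519 ± 189 CPM each (SD, n = 3). Nearly equal counts were usual at such places. Of 38 pairs of intronless loci on opposite strands that shared at least 90% of the longer one, 35 had exon counts within 10% of each other and 6 had identical counts in every library. The exceptions were AT1G05767 with AT1G22810, AT2G09045 with AT2G39430, and AT3G04615 with AT3G24020. Where the counts are nearly equal, those of the partners cannot be told apart. The uncharacterized locus AT1G55673 overlaps the photosystem I subunit gene PSAG (AT1G55670) on the opposite strand, and their exon counts differed, at 30642, 31384 and 27920 for AT1G55673 and 49556, 51893 and 44869 for PSAG, while both came to 2526 ± 29.1 and 2522 ± 66.2 CPM per kb. LHCB1.3, PSBR, RCA, PSBP1 and CA1 also overlap a neighbouring locus in the annotation.

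The other loci among the 20 were mostly subunits of the same machines. PSBO1 (AT5G66570), the manganese-stabilizing protein of the oxygen-evolving complex, had 3507, 3498 and 3510 CPM, the smallest spread among them. Its partners PSBP1 (AT1G06680) and PSBR (AT1G79040) had 2807 ± 13.98 and 3104 ± 45.7 CPM. DRT112 (AT1G20340), which encodes plastocyanin, the copper protein that carries electrons to photosystem I, stood at 2787 ± 42.0 CPM. RCA (AT2G39730), the Rubisco activase, stood at 2828 ± 84.5 CPM, and CA1 (AT3G01500), a chloroplast carbonic anhydrase, at 2423 ± 45.2 CPM (SD, n = 3 for each).

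The loci of this group outside the photosynthesis lists were THI1, GRP7, AT3G06365, AT2G08665 and 1 chloroplast locus. The counts of AT2G08665 cannot be told apart from those of LHCB1.5. THI1 (AT5G54770), the thiazole synthase of vitamin B1 synthesis, had 3989, 3908 and 3725 CPM. GRP7 (AT2G21660), a glycine-rich RNA-binding protein under clock control, had 3288, 3108 and 2825 CPM. AT3G06365, an uncharacterized non-coding RNA, had 2925, 2371 and 2139 CPM and so the widest spread of the group. Both GRP7 and AT3G06365 were highest in replicate 1 and lowest in replicate 3. By length, MT2B (AT5G02380), a metallothionein that binds metal ions, also entered the 15 highest loci at 2181 ± 32.6 CPM per kb.

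Within the light-harvesting antenna all 17 genes had at least 10 CPM in each library, with a median of 1525 CPM per kb against 1.54 CPM per kb over all 37573 annotated loci. The 5 LHCB1 genes together reached 21596 CPM per kb. LHCB2, the other major component of the photosystem II antenna trimers, was far lower in these tables: LHCB2.2 (AT2G05070) had 113 CPM per kb, LHCB2.1 (AT2G05100) 66.2 and LHCB2.3 (AT3G27690) 22.8, or 202 in sum. LHCB2.2 had 129, 128 and 130 CPM, so its low level was shared by the libraries. LHCB1 and LHCB2 genes, like RBCS genes, have near-identical copies. How the authors' counting treated reads that match several copies is not given in the sources used here, so the division of counts within these families is uncertain, and its part in the low LHCB2 level was not tested. The photosystem I antenna genes LHCA1 to LHCA4 lay between 1341 and 1883 CPM per kb.

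The other photosynthesis lists showed the same high level with less range. The median of 20 nuclear photosystem and electron transport genes was 1509 CPM per kb, and each had at least 100 CPM in each library. PSBO2 (AT3G50820), the minor copy of PSBO1, had 620 CPM per kb, against 2324 for PSBO1, and the minor plastocyanin gene PETE1 (AT1G76100) had 132 against 2069 for DRT112. The median of 15 Calvin cycle and photorespiration genes was 476 CPM per kb, with GAPA (AT3G26650), a glyceraldehyde-3-phosphate dehydrogenase subunit, highest at 905. Together these lists, with the Rubisco genes, held 11.8%, 11.9% and 11.7% of exon counts in replicates 1, 2 and 3.

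**Figure D2:**
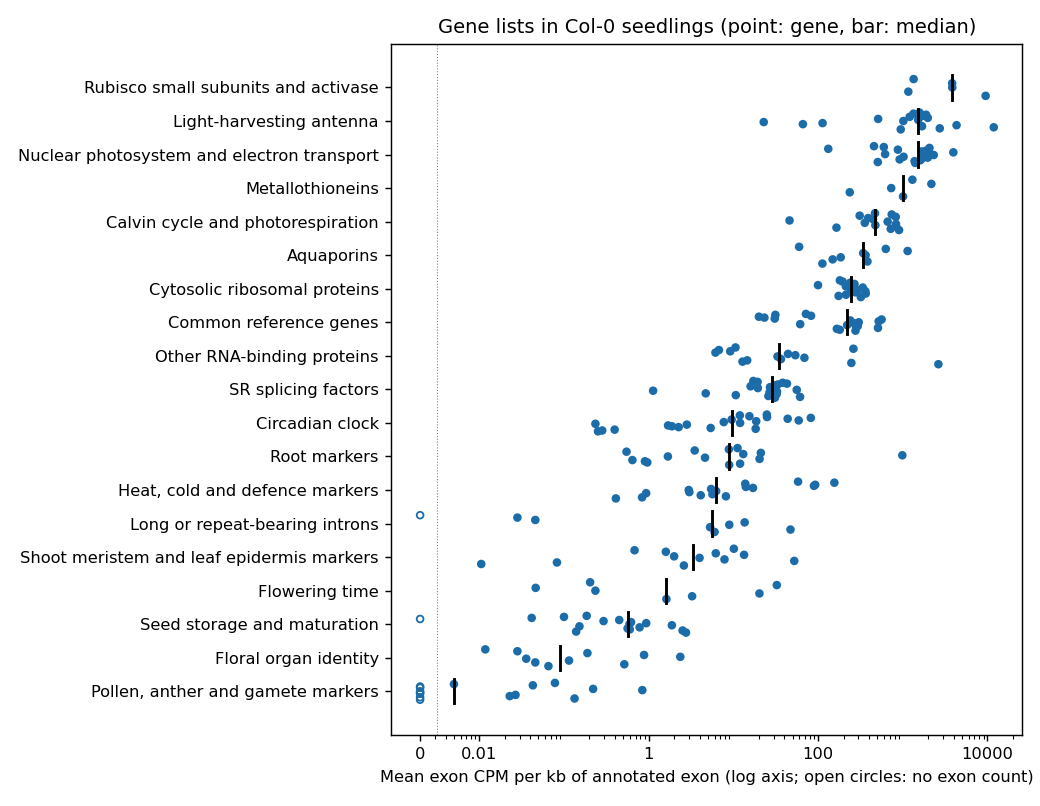
Mean exon CPM per kb of annotated exon (log axis) of the genes of 19 lists, with 1 point per gene and a bar at each list's median. Open circles are genes without an exon count, drawn at a fixed place marked 0. Rubisco, antenna and photosystem genes lie highest, and floral, pollen and seed genes lowest, 7 of 15 pollen, anther and gamete genes being at 0.

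Below photosynthesis came the genes of growth and cell maintenance. The 15 cytosolic ribosomal protein genes had a median of 243 CPM per kb and a narrow range of 99.98 to 366 CPM per kb. RPL5A (AT3G25520), a protein of the large ribosomal subunit, had 546 ± 12.9 CPM and stood highest of them per kb. Of 9 aquaporin genes, TIP1;2 (AT3G26520), a water channel of the vacuole membrane, was highest at 1143 CPM per kb, and the median was 342. The 19 genes in common use as references for quantitative PCR had a median of 221 CPM per kb and coefficients of variation between 0.512% and 6.32%. The steadiest was SAND (AT2G28390) at 47.3, 47.7 and 47.6 CPM. The classical reference ACT2 (AT3G18780), an actin, had 671, 677 and 661 CPM, whereas TIP41L (AT4G34270) had 32.8, 29.9 and 29.2 CPM and the largest coefficient of variation of the list.

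Root and shoot genes were both present, as the label of whole seedlings says. Of 15 root markers 14 had at least 1 CPM in each library, as had 69.3% of protein-coding loci and 52.9% of all loci. PYK10 (AT3G09260), a beta-glucosidase stored in root endoplasmic reticulum bodies, had 1805, 1758 and 1797 CPM, and was also the highest per kb at 989, against 21.1 for the next, IRT1. IRT1 (AT4G19690), the iron transporter gene of the root epidermis, had 33.0 ± 1.86 CPM, SCR (AT3G54220), a factor of the endodermis, 33.3 ± 2.01 CPM, and CASP1 (AT2G36100), which patterns the Casparian strip, 18.4 ± 1.39 CPM. Genes of the root stem cell niche were low but present. WOX5 (AT3G11260), a marker of the quiescent centre, had 0.948, 0.936 and 1.16 CPM, and PLT1 (AT3G20840), a root stem cell factor, had 1.90, 2.34 and 2.18 CPM.

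Of 12 markers of the shoot meristem and leaf epidermis, 10 had at least 1 CPM in each library, against 69.3% of protein-coding loci. AS1 (AT2G37630), a MYB factor of leaf primordia, had 104, 102 and 96.1 CPM. Genes of the stomatal lineage were present. SPCH (AT5G53210), which starts the lineage, had 8.69 ± 0.543 CPM. MUTE (AT3G06120), which ends its divisions, had 1.88 ± 0.196 CPM, and FAMA (AT3G24140), which acts in guard cell formation, 31.8 ± 0.875 CPM. Per kb of exon these were 3.99, 1.997 and 13.4 CPM. The meristem gene STM (AT1G62360) had 4.44 ± 0.458 CPM. WUS (AT2G17950) and CLV3 (AT2G27250), which are active in a few cells at the meristem tip, had means of 0.0132 and 0.0677 CPM, WUS with a count in replicate 1 alone.

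Reproductive genes were nearly absent. Of 10 floral organ identity genes, SEP3 (AT1G24260) at 3.00 ± 0.311 CPM and SHP1 (AT3G58780) at 2.25 ± 0.223 CPM were the only ones with at least 1 CPM in each library, and SHP1 overlaps 2 other annotated loci. Of 15 pollen, anther and gamete genes 1 reached that level, GEX2 (AT5G49150) at 2.84 ± 0.104 CPM, which also overlaps another locus. SPL/NZZ, VGD1, MS1, HTR10, DUO1, EC1.1 and EC1.2 had no exon count in any library. Over all loci 52.9% had at least 1 CPM in each library.

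Seed transcripts were at low but countable levels. The storage protein genes CRA1 (AT5G44120) and CRC (AT4G28520), which encode cruciferins, had 5.15 ± 1.05 and 4.52 ± 0.538 CPM, and 14 of 17 seed genes had a mean below 1 CPM. LEC1 (AT1G21970), an embryo regulator, had no count. The values of CRA1 were 6.16, 4.06 and 5.23 CPM, a wider spread than at loci of 10 CPM and more.

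Among flowering time genes the repressor SVP (AT2G22540) had 57.8, 56.6 and 60.7 CPM and the integrator SOC1 (AT2G45660) 30.1, 32.8 and 31.7 CPM, or 32.6 and 20.3 CPM per kb, the highest of the list. CO (AT5G15840), which promotes flowering in long days, had 9.53 ± 0.0817 CPM, and its target FT (AT1G65480), the mobile signal from leaf to apex, had 1.34, 1.64 and 1.76 CPM. The floral meristem genes LFY (AT5G61850) and AP1 (AT1G69120) had 0.324 and 0.0807 CPM. FLC (AT5G10140), a repressor that is silenced by long cold, had 6.27 ± 0.376 CPM, and VIN3 (AT5G57380), a gene induced by that cold, had no count.

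The clock genes were read without a known phase, since the labels do not state the hour of harvest. The evening genes TOC1 (AT5G61380), LUX (AT3G46640) and ELF4 (AT2G40080) had 166 ± 1.62, 97.9 ± 0.819 and 50.9 ± 3.20 CPM. The morning genes LHY (AT1G01060) and CCA1 (AT2G46830) had 0.948, 1.01 and 0.942 CPM and 0.632, 0.741 and 0.685 CPM. PRR9 (AT2G46790), another gene of the morning, had 0.503 ± 0.159 CPM, and RVE8 (AT3G09600) 0.930 ± 0.0586 CPM. On the scale of CPM per kb the distance was as clear, with 59.1 for TOC1 and 82.2 for ELF4, and 0.283 for LHY and 0.252 for CCA1. Values of TOC1 and LHY were close in all 3 libraries, LHY at a low level, and whether the replicates shared a phase was not tested.

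Stress markers of cold, heat and defence differed in level. The cold-regulated dehydrin gene COR47 (AT1G20440) had 362 ± 6.32 CPM, COR15B (AT2G42530) 147 ± 4.95 CPM and COR15A (AT2G42540) 142 ± 1.56 CPM, although the labels name no cold treatment. Of the heat markers, HSP17.6A (AT5G12030), a small heat shock protein, was low at 0.395, 0.390 and 0.300 CPM. HSP101 (AT1G74310) had 13.9, 13.1 and 14.5 CPM, above the median of 9.16 CPM over loci with a count. PR1 (AT2G14610), a marker of salicylic acid defence, had 1.07, 0.819 and 0.643 CPM.

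Splicing left few counts in introns. Over the 16887 loci the median intron share was 1.38%, with 0.532% and 2.84% at the quartiles and 8.59% at the 95th percentile. The library medians were 1.32%, 1.37% and 1.38%, and Spearman's rho of the shares between pairs of libraries, across loci, which are not independent replicates, was 0.895 to 0.897. A share of 10% or more was seen at 690 loci (4.09%), of 50% or more at 151 (0.894%) and of 90% or more at 45. At the other end 1737 loci had no intron count in any library, but 1580 of them have no annotated intron. Of the 14440 loci with an annotated intron 155 had no intron count. For 3237 loci whose intron counts summed to 90 or more the median ratio of the SD between replicates to the SD from counting alone was 0.889, so for a typical locus the replicates differed about as much as counting gives.

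Most of the highest shares lay at loci that overlap another gene. Of the 135 annotated loci with a share of 50% or more, 123 overlapped another annotated locus (91.1%), against 35.3% of all annotated loci with a share, and 117 had exons of another locus inside their introns. Another 16 of the 151 were organelle loci that the annotation used here does not hold. The remaining 12 overlapped no annotated locus. Among 10895 loci without an overlap the median share was 1.27%, with 232 at 10% or more and 12 at 50% or more. The count limit for a share is on intron plus exon counts, so loci with few exon counts entered only through their intron counts. Of the 20 loci with the highest shares 11 had no exon count. How far this entry rule shaped the contrast between 91.1% and 35.3% was not tested.

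**Figure D3:**
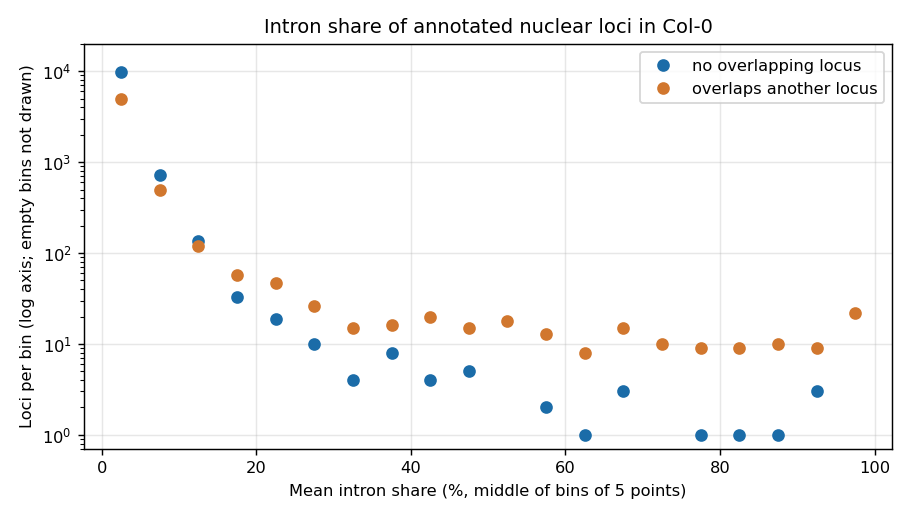
Number of annotated nuclear loci (log axis) per bin of 5 percentage points of mean intron share, for loci that overlap no other annotated locus and for loci that do. In the first bin 9949 loci without and 5006 with an overlap are counted; above 50%, loci with an overlap outnumber the others in each bin, and in the last bin they are 22 against 0.

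Intron counts of an outer locus and exon counts of the locus inside it were set side by side, and the loci named next were chosen after their values were seen. In AT5G19150, whose share was 93.7 ± 0.165% (SD, n = 3), introns had 8140, 8556 and 7961 counts, and the exons of AILP1 (AT5G19140), which lies within it on the opposite strand, had 8211, 8701 and 8163. The long non-coding RNA locus AT5G01765, with a share of 72.2 ± 0.921%, had 2284, 2245 and 1980 intron counts, and the exons of GTE2 (AT5G10550), a bromodomain gene inside it on the opposite strand, had 2219, 2171 and 1919, but those of AT5G10540, inside it on the same strand, had 3477, 3573 and 3127. AT1G25097 had 273, 272 and 273 intron counts and no exon count, and the exons of AT1G25098 had 272, 272 and 273. In AT5G19150 and AT1G25097 the intron count of the outer locus was close to the exon count of the inner one in each library. Such a match was not general: over 116 outer loci the median ratio of the intron count to the exon count of the best counted inner locus was 0.411, with 13 between 0.8 and 1.1. Which transcripts gave the intron counts was not tested.

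Among the 20 loci with the highest shares 5 lay in the chloroplast. All 15 nuclear ones overlapped another locus, and 11 of the 20 had no exon count at all and hence a share of 100%. AT1G25097, AT1G72755, AT2G20170, AT2G30760, AT2G34110 and AT3G52700 were the nuclear loci without an exon count. HOS10 (AT1G35515), annotated as a gene of the response to osmotic stress, had 1329, 1363 and 1191 intron counts against 5, 18 and 17 exon counts, a share of 98.97 ± 0.568%, and overlaps AT1G35516, whose exons inside it had 879, 876 and 754 counts, fewer than its introns. AT5G01595 had 1913, 2050 and 1842 intron counts against 34, 17 and 11 exon counts. FER1 (AT5G01600), a ferritin that stores iron, lies inside its introns on the opposite strand, with 3176, 3319 and 3032 exon counts. AT3G02455, a long non-coding RNA locus, had 1852, 1848 and 1627 intron counts against 12, 6 and 8 exon counts and overlaps AT3G11560, whose exons had 4989, 4967 and 4607 counts. AT5G24215 had 147, 138 and 150 intron counts, and the exons of AT5G03695 inside it had 6, 6 and 10. The ratio of intron counts to the exon counts of a neighbour thus varied widely, from 0.137 in AT2G20170 to 19.8 in AT5G24215 among those with a single locus inside.

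Leaving such loci aside, 8542 protein-coding nuclear loci at a mean of 10 CPM or more overlapped no annotated locus, and their median share was 1.25%. Of these 121 had a share of 10% or more, 25 of 20% or more and 1 of 50% or more. That locus was AT2G25590, a Tudor-like protein gene, with 60.4%, 57.6% and 58.8% in replicates 1, 2 and 3. It rested on 399, 398 and 357 intron counts against 262, 293 and 250 exon counts. It has 6 annotated introns, and per kb its introns held 121% of the counts of its exons.

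AT1G73885, annotated as an AT-rich interactive domain protein, followed with 47.7%, 48.6% and 48.99%. At 125 CPM it had 2887, 2989 and 2874 intron counts, the most of the 20 loci with the highest shares of this kind. AT1G13609, a defensin-like gene, had 49.4%, 47.0% and 48.8%, and AT5G28400, annotated as an embryo defective protein, had 40.4%, 45.6% and 48.7%. The values of AT1G73885 and AT1G13609 overlapped, so their order did not hold beyond the spread between replicates, and AT5G28400 spread most of the 20. In the annotation used here AT1G13609 has 1 intron, of 55 bases. By that length its intron counts per kb came to 855% of those of its exons. Where in the locus these counts lay was not seen, and the annotation used for counting is not given. In 9 of the 20 loci the introns held at least as many counts per kb as the exons.

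**Figure D4:**
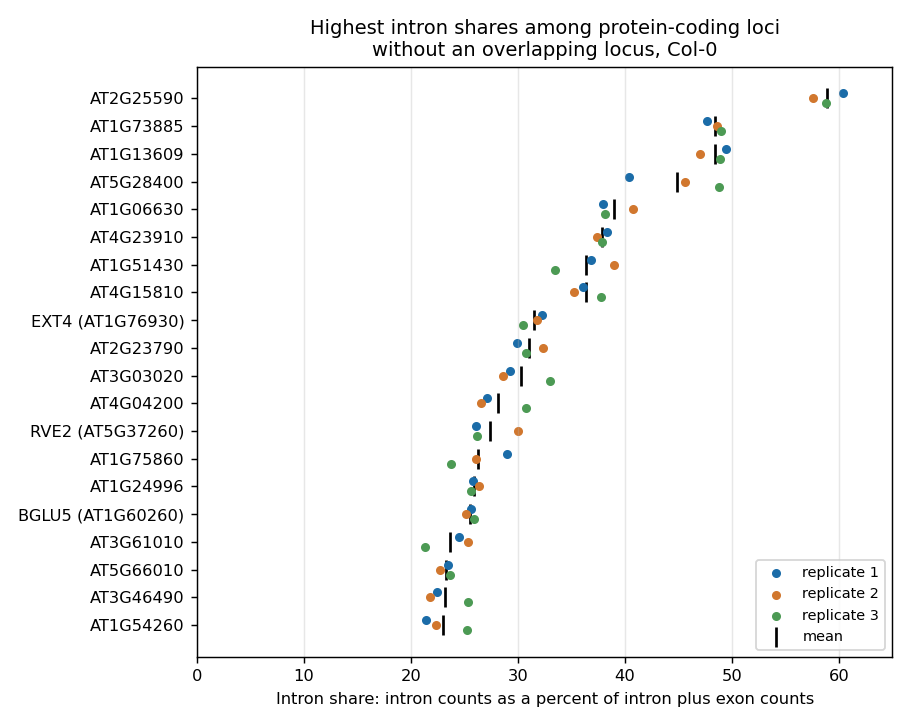
Intron share of the 20 protein-coding nuclear loci with the highest means among those at 10 CPM or more without an overlapping locus, with 1 point per replicate and a bar at the mean. AT2G25590 lies near 59%, apart from the rest, and all 20 have means of at least 23.0%, against a median of 1.25% over the 8542 loci of this kind.

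Some of these genes have known roles in the cell wall, the clock and RNA. EXT4 (AT1G76930), an extensin of the cell wall, had shares of 32.3%, 31.7% and 30.5% at 198 CPM. RVE2 (AT5G37260), a MYB-like factor under clock control, had 26.0%, 30.0% and 26.2% at 47.5 CPM. AT5G66010, an RNA-binding protein gene with RRM motifs, had 23.5%, 22.7% and 23.7% at 18.2 CPM. EXT4 thus showed a steady share at a high level, while that of RVE2 was highest in replicate 2. BGLU5 (AT1G60260), a beta-glucosidase, had 25.5 ± 0.376%, and AT2G23790, a mitochondrial-type calcium uniporter protein, 31.0 ± 1.24%. AT1G24996, uncharacterized, had 25.9 ± 0.351% at 208 CPM, the smallest SD of the group. The other loci, AT1G06630, AT4G23910, AT1G51430, AT4G15810, AT3G03020, AT4G04200, AT1G75860, AT3G61010, AT3G46490 and AT1G54260, had means between 23.0% and 39.0%. The 95% Wilson interval of a single library was 7.12 points wide in the median of the 20 loci and 9.65 at most, and covers counting error only.

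Of the 12 annotated loci with a share of 50% or more and no overlap, all but AT2G25590 were below 10 CPM. AT7SL-1 (AT4G02970), whose product is the RNA of the signal recognition particle, had 95.1%, 95.7% and 93.7%, with 1407, 1457 and 1133 intron counts and 72, 65 and 76 exon counts. AT3G26395 had 65.9 ± 1.64% at 9.37 CPM. AT5G28340 and AT5G14350, of the tetratricopeptide and pentatricopeptide repeat families, had 85.3 ± 1.73% and 79.9 ± 3.69%. The others were AT1G78030, AT4G05631, AT2G01021, AT1G15165, AT5G02650, AT5G22794 and AT1G15160, with means between 56.7% and 92.1%. AT2G01021 has no intron in the annotation used here.

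The lists of splicing factors and other RNA-binding proteins held several of the high shares. Many such proteins regulate the splicing of their own or of related transcripts, and SR proteins, which recruit the spliceosome, are known for it. Of 19 SR genes with a share 16 lay above the median of all loci, with a list median of 2.104% against 1.38% over all loci. Loci without introns are part of that whole, and loci with an annotated intron had a median of 1.66%. Among protein-coding loci without an overlap it was 1.84% with 5 to 9 introns and 2.03% with 10 to 19, near that of the SR genes. RS31 (AT3G61860) had 21.2%, 21.2% and 22.7% at 38.9 CPM, and SCL30A (AT3G13570) had 10.6%, 11.8% and 12.2% at 40.1 CPM. Neither overlaps another locus, and both lay above the other SR genes in every library. SCL30 (AT3G55460) and SR34 (AT1G02840), the next, had 5.34 ± 0.789% and 5.11 ± 0.271%, which did not differ beyond their spread.

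Of 14 other RNA-binding or splicing-regulated genes 10 lay above the median of all loci. The list median was 2.93%, against 1.66% over loci with an annotated intron. U2AF65B (AT1G60900), a subunit of the factor that marks the end of an intron, had 12.7%, 12.1% and 11.4%, and its paralog U2AF65A (AT4G36690) 2.34%, 2.11% and 2.55%. GRP7 had 9.64%, 10.8% and 11.8%, and GRP8 (AT4G39260), whose splicing GRP7 controls, 10.8%, 12.2% and 13.1%. GRP7 was the only locus among the 20 with the highest CPM whose share reached 10%, on 8881, 9609 and 8804 intron counts. In both GRP7 and GRP8 the share was highest in replicate 3 and lowest in replicate 1, and the exon CPM the other way round. The polypyrimidine tract-binding protein genes PTB2 (AT5G53180), PTB1 (AT3G01150) and PTB3 (AT1G43190), which repress splicing sites, had 5.71 ± 0.416%, 4.62 ± 0.597% and 4.18 ± 0.177%.

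Genes known for long introns were not alike. RPP7 (AT1G58602), a downy mildew resistance gene with a retrotransposon in an intron, had 16.5%, 17.8% and 17.1%, and overlaps AT1G58561. MAF2 (AT5G65050), a flowering repressor spliced according to temperature, had 14.5%, 14.9% and 18.1% without an overlap, and its relative FLM (AT1G77080) 6.47%, 7.69% and 6.46%. IBM1 (AT3G07610), a histone demethylase gene with a methylated long intron, had 0.785%, 1.46% and 1.22%, with a mean below the median of all loci. Shares of 6.31% in each of SVP and SOC1 placed these MADS-box genes near FLM, with SDs of 0.859 and 1.43 points. ELF3 (AT2G25930), a clock gene, had 16.5 ± 1.04% but overlaps AT2G08135 and AT2G25940, and MT1A (AT1G07600), a metallothionein gene, had 18.3 ± 0.978% and overlaps AT1G07590. In all, 9 of 194 list genes with a share reached 10%, 3 of them with an overlap; this is 4.64%, near the 4.09% over all loci.

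Genes of photosynthesis had few counts in introns relative to exons. None of the 17 antenna genes lay above the median share of all loci, and their own median was 0.199%. The LHCB1 genes have no annotated intron, and LHCB1.1, LHCB1.3 and LHCB1.4 had no intron count in any library. RBCS1A had a share of 0.559 ± 0.0128% on 1744, 1771 and 1539 intron counts, and RCA 0.184 ± 0.00983%. RBCS3B and RBCS1B (AT5G38430) were higher at 3.44 ± 0.0157% and 3.72 ± 0.0757%, against 0.425 ± 0.0234% for RBCS2B beside them in the gene cluster. Ribosomal protein genes lay near the whole, with a median of 1.53%, from 0.278% in RPL4A (AT3G09630) to 4.31% in RPL28A (AT2G19730). Of the reference genes UBC21 (AT5G25760) had the highest share, 4.97%, 6.76% and 7.75%, and overlaps AT5G25770.

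The share was lower at higher transcript levels and higher with longer introns. Over 9261 protein-coding loci with an annotated intron and no overlap, the median share was 2.16% in the lowest of 5 equal groups by exon CPM, then 1.88%, 1.66%, 1.41% and 1.05% in the highest. A share of 10% or more was seen at 104, 57, 29, 21 and 12 loci of these groups. The count limit for a share is on intron plus exon counts, and the lowest group began at 0.630 CPM. Its loci with few exon counts could enter only through their intron counts. AT1G78030, for example, had 22, 13 and 12 exon counts and 183, 179 and 178 intron counts. How far this entry rule raised the shares of the lowest group was not tested. The next group began at 10.6 CPM. By annotated intron length the medians were 0.771%, 1.36%, 1.64%, 1.93% and 2.1002% from the shortest to the longest group. Spearman's rho across loci was -0.245 with exon CPM and 0.351 with intron length, given as a description of loci that share libraries, since the exon count is part of both the share and the CPM. Loci with 1 annotated intron had a median of 0.745%, those with 2 to 4 introns 1.38%, those with 5 to 9 introns 1.84%, those with 10 to 19 introns 2.03%, and those with 20 or more 1.90%.

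Per base the order by length was turned round. The counts per kb of intron came to a median of 3.97% of the counts per kb of exon over these loci, and this ratio was 7.24% in the group with the shortest introns and 2.71% in that with the longest. At 105 loci it reached 50% and at 46 loci 100%. Of 1588 loci without an annotated intron or an overlap 1270 had no intron count, and 26 had a share of 1% or more. Counts placed in an intron where none is annotated were thus few at most of these loci, but AT2G01021 had a share of 82.3%.

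**Figure D5:**
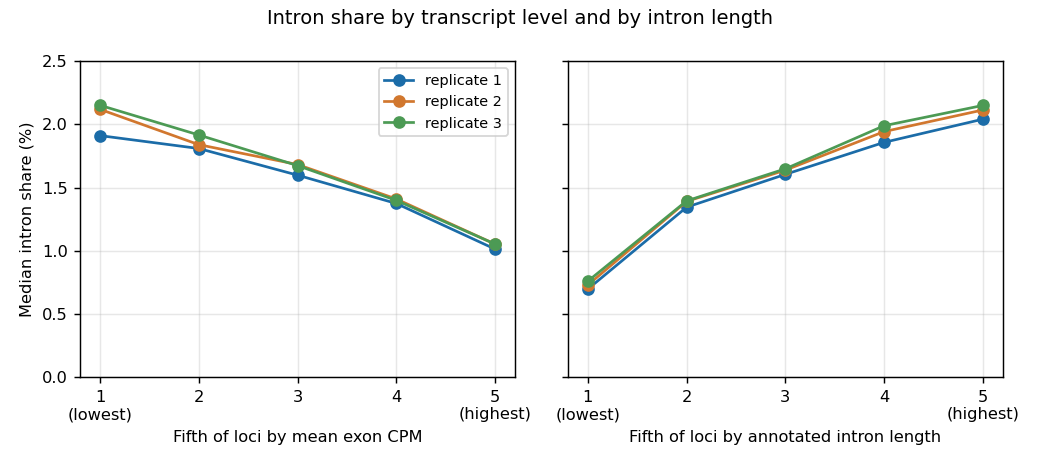
Median intron share of protein-coding loci with an annotated intron and no overlap, by quintile of mean exon CPM (left) and of annotated intron length (right), with 1 line per replicate. In each replicate the share is lower in each higher quintile by CPM and higher in each longer quintile by intron length; replicate 1 is lowest throughout.

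Organelle loci took a small part of exon counts, 0.451% to 0.471% for 134 chloroplast loci and 0.0233% to 0.0259% for 162 mitochondrial loci. Their loci are named here by identifier only, because the annotation used here does not hold them. Which of them encode ribosomal RNA is therefore not given, and their counts need not come from polyadenylated RNA. ATCG00950 had 3356, 3508 and 3617 CPM, the 9th highest mean of all loci, and almost no intron count. Shares could be taken for 46 chloroplast loci, with a median of 2.49% and 14 at 10% or more, and for 10 mitochondrial loci, with a median of 93.1% and 7 at 50% or more. ATCG00830 had 30.2%, 30.8% and 31.3% at 65.4 CPM, and ATMG01320 had 98.4%, 98.7% and 97.2%. ATCG00030, ATCG00400, ATCG00450, ATCG00930 and ATCG00940 had intron counts and no exon count. The limit of 100 counts is on intron plus exon counts. ATMG01320 passed it through 125, 148 and 139 intron counts, with 2, 2 and 4 exon counts. The shares of these 10 mitochondrial loci therefore do not describe the other mitochondrial loci.

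The loci that varied most between the replicates lay mostly in the chloroplast or encoded ribosomal RNA, which is mostly not polyadenylated. ATCG00920 had 689, 338 and 354 CPM, the largest ratio of highest to lowest library, 2.04, among loci at 10 CPM or more. The 18S ribosomal RNA locus AT3G41768 had 1306, 717 and 745 CPM, and AT2G01010, another, had 583, 330 and 334 CPM. ATCG00020 had 49.7, 25.3 and 26.0 CPM. Replicate 1 was the highest in each of these 4, but the lowest in ATCG01130, at 16.1, 26.6 and 23.4 CPM, and in ATCG00740, at 10.3, 14.7 and 12.8 CPM. Its 4 nuclear ribosomal RNA loci together took 0.208% of exon counts against 0.117% and 0.122% in replicates 2 and 3. AT4G27100, of the Ypt/Rab-GAP family, was the only protein-coding nuclear gene among the 10 most variable loci, with 9.79, 11.8 and 14.7 CPM.

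The limit of 100 counts for an intron share was met just barely by AT1G16480 and AT1G20230, both with a lowest library of 100 counts and a share of 0. AT1G05163 and AT1G06270, with 99 counts in their lowest library, were just outside it.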

How the data were processed

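Per the file headers, each deposited table lists exon and intron counts by locus for a single library. The authors' counts are whole numbers of differing totals and were taken as raw reads. Reads were aligned with STAR, per the submitters' processing notes. Its version, the genome build, annotation, counting program, strandedness and intron rule are not given in the sources used here. The 3 replicates are biological, per the series' design text. The members and gene lists were chosen with earlier results of these data known.

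Exon CPM is the exon count per 1e+06 exon counts of all 37869 loci. Names, biotypes, lengths and overlaps came from the RefSeq TAIR10.1 annotation and may differ from those counted; 37573 loci were found and 296, all organellar, were not. Its coordinates served for overlaps and lengths and are not printed. With 1 group and no contrast, no test was made. Values are means ± SD over 3 libraries. Wilson intervals at 95% and the floor of 3 counts cover counting error only. No library repeated another: squared differences between pairs averaged 1.72 to 2.84 times counting noise. The common biological coefficient of variation from edgeR was 0.0274 over 21570 loci.

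Named loci follow a rule: the 20 highest by CPM, 15 by CPM per kb, 20 by intron share, 20 by share among protein-coding nuclear loci at 10 CPM or more without overlap, the 10 most variable, list members by level, by share or without a count, the loci nearest the threshold, and 5 per organelle by level and by share. Loci outside it (the exceptional and nested pairs, some list members and the 12 loci at 50% or more without overlap) were chosen after their values were seen. The alternatives were other CPM denominators, TMM and RLE scaling, other count and CPM minimums, pooled counts, loci without overlap or with an annotated intron, shares per kb, and leaving out each replicate; 2 more, restricted to protein-coding loci, were added after seeing the data. The mutant tables served for the label check. The steps were tested on simulated data. Software was Python 3.11.15 with numpy 2.4.6, matplotlib 3.10.9 and pandas 2.3.3, and R 4.3.3 with DESeq2 1.42.0 (size factors only) and edgeR 4.0.16.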

Additional observations from a re-analysis of the deposited data

How the results depend on the processing

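No paired analysis was possible because 1 group was described without a test. A count of loci was called close within 1.5-fold, and any other value within 1 SD between replicates. By these limits 46 summary values stayed close and 22 moved. The limit is wide for counts: with at least 50 counts per library, 690 loci at 10% or more became 906, called close. For a named locus, leaving out 1 of 3 replicates cannot shift the mean by 1 SD, so those values were bound to stay. Among all values of named loci 272 stayed and 8 moved, each an exon CPM with intron counts added to the denominator. That denominator put the 20 most abundant loci at 8.44% of counts, against 8.61% by exon counts. The range of levels, a log10 ratio of 6.05, was 5.87 to 5.88 without a replicate.

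Shares depended on which loci entered. With at least 500 counts per library 9197 loci remained, with a median share of 1.25%, 214 loci at 10% or more and 50 at 50% or more; with at least 1000 these were 5172, 1.09%, 109 and 29. Loci without overlap numbered 10895, with 1.27%, 232 and 12, and protein-coding ones among them at 10 CPM or more, added after seeing the data, gave 121 and 1. The median was 1.66% for loci with an annotated intron, and by counts per kb 4.02%, with 2621 and 290. Leaving out each replicate kept 19 of the 20 loci with the highest CPM each time, and 19 or 20 of the 20 with the highest share in each ranking. Depth limits low shares: at 100 counts a share under 3% rests on under 3 intron counts. Unstated strandedness and intron rules limit every locus that overlaps another.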
